A study of Mus musculus with 9 samples.

Results

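The genes described here are the matrix metalloproteinases (MMPs) Mmp2, Mmp9, Mmp12, Mmp13, Mmp14, Mmp15 and Mmp19 and the tissue inhibitors of metalloproteinases Timp1, Timp2 and Timp3. They were chosen by gene symbol: a probe set was taken where the platform annotation gave it 1 symbol and that symbol was a member. Of the 10 genes, 9 were matched, by 22 probe sets, among 18193 genes on the array, and Mmp15 was not analysed here. Each gene was represented by its probe set of highest average value across the 9 arrays. Expression was measured on Affymetrix mouse genome arrays, 1 per sample, in 5 hepatocellular carcinomas and 4 normal livers. The tumours came from mice called triple knockout (TKO), dissected 4 months after adenovirus carrying Cre recombinase (Ad-Cre) had been injected into the spleen. Their genotype is given as RbΔ/Δ; p130Δ/Δ; p107+/-, so that 1 copy of p107 was intact. The 4 normal livers came from adult wild-type mice without tumours, and no virus is named for them, so genotype, virus and tumour cannot be told apart. The sources used here do not give ages in weeks or the cells that the virus reached. Whether each array stands for a different animal is not stated, so p-values cover only the variation among these arrays, which may be technical.

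MMPs are zinc-dependent proteases that cut collagens, laminins, elastin and other proteins of the extracellular matrix. Most are secreted as inactive precursors, while Mmp14 and Mmp15 are held at the cell surface, and TIMPs bind the active site and block it. In injured liver, stellate cells, macrophages and neutrophils are known sources of MMPs, and Timp1 is a well known product of activated stellate cells. Transcription of several secreted MMPs is known to respond to AP-1, the dimer of Fos and Jun proteins.

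The 250 bases before a transcription start were read from RefSeq (GRCm38.p6) for 7 of the 10 members, at 8 start sites, and are shown for the 4 members with the largest positive mean differences, of which Mmp13 and Mmp14 passed the test below and Mmp12 and Timp1 did not. Capitals mark the AP-1 element, TGANTCA, which reads the same on either strand. Coordinates are chr9:7272264-7272513 for Mmp13, chr9:7344147-7344396 and chr9:7347124-7347373 for the 2 start sites of Mmp12, chr14:54431348-54431597 for Mmp14 and chrX:20869916-20870165 for Timp1, all on the plus strand.
Mmp13: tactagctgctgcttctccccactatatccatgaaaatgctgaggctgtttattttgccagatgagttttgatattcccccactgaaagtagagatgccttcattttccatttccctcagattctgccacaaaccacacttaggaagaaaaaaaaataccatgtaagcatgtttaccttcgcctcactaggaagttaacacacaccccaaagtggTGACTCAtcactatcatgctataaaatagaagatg
Mmp12, start site 1: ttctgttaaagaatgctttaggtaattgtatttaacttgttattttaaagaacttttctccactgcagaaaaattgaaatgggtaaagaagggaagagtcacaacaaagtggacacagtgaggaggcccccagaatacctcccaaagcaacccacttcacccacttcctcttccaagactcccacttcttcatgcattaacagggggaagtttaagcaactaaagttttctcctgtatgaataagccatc
Mmp12, start site 2: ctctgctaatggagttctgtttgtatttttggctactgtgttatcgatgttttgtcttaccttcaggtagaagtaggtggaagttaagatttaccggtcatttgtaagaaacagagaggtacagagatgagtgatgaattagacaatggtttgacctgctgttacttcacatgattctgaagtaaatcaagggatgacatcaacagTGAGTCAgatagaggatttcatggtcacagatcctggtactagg
Mmp14: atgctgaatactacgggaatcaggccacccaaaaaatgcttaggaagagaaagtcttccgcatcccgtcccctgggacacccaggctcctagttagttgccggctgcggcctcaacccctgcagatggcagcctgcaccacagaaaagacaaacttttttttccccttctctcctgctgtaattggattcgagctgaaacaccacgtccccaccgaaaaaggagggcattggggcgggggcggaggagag
Timp1: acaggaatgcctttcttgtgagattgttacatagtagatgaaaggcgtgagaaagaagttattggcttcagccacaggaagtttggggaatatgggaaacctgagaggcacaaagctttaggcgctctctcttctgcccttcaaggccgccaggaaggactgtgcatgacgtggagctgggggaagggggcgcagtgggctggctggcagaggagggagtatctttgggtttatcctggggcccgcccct

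An AP-1 element was found at 2 of the 8 start sites, those of Mmp13 and the second site of Mmp12, against 6.75% of 32851 mouse promoter windows of this length. Its first base lay 35 bases before the start of Mmp13 and 44 bases before the second start of Mmp12. Mmp13 also held TATAAA, searched on either strand, 16 bases before its start, as did 12.4% of all windows. The windows of Mmp14, Mmp15, Timp1, Timp2 and Timp3 held the GC box GGGCGG on 1 or other strand, present in 32.7% of windows. The Mmp12 and Mmp13 windows were poor in CpG, with 0 and 2 of these dinucleotides at the Mmp12 sites and 1 at Mmp13, whereas Timp2 had 21 and Timp3 had 18, with a median of 6 over all windows. Overlaps with other motifs were not searched, and a match describes the letters only.

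The values are log2 expression after RMA, so a difference of 1 is a 2-fold change, and levels of different probe sets are not comparable with each other. Group means were compared by limma over all 18193 genes with Benjamini-Hochberg adjustment, and a gene passed at an adjusted p under 0.05. The bacterial TrpnX control, with no target in mouse RNA, read 3.69 to 4.36, and all 9 members lay above it in at least 1 group. Of the targeted genes, Rbl2 (p130) was 6.77 to 8.43 in the tumours, against 9.44 to 10.02 in the livers, Rb1 was 8.76 to 9.38 and 7.69 to 8.33, and Rbl1 (p107) was 4.63 to 4.82 and 4.23 to 5.83. Rb1 was thus higher in the tumours, not lower. Which exons were deleted is not stated in the labels, so these probe sets need not report on the deletion. Xist, made from the inactive X chromosome of females, was 6.34 to 6.66 in 3 arrays (tumours 1 and 2 and liver 4) and 12.68 to 13.55 in the other 6. Of 8 measured hepatocyte markers, Ahsg rose by 0.40 (limma adjusted p = 0.00787) and Apob fell by 0.61 (adjusted p = 0.000829), neither past with housekeeping centring, and their summed level (log2 of the sum of linear values) was 17.49 to 17.67 in the tumours, against 17.53 to 17.71 in the livers. That sum is weighted to genes at the top of the array range, such as Alb at 15.21 to 15.55, where 15.55 was the highest value of all. It need not report the share of hepatocytes. As a gauge of RNA length, signal of the Actb control at its 3' end relative to its 5' end came to a log2 ratio of 0.61 ± 0.08 (SD, n = 5) for tumours and 0.96 ± 0.04 (SD, n = 4) for livers. By an exact two-sided permutation test over 126 splits this gave p = 0.00794, the smallest possible, and 0.0159 adjusted over 2 controls. Gapdh gave -0.21 ± 0.03 (SD, n = 5) against -0.28 ± 0.05 (SD, n = 4), where the exact p was 0.0635, also after adjustment. The part of RNA length in the results below was not tested. Among called genes 48.0% were higher, against 76.3% with arrays centred on 11 housekeeping genes, of which 5 rose, among them Actb, Rplp0 and Ywhaz, and Sdha fell, and 22.9% with centring on the 75th percentile. These settings put the median over all genes, -0.08 as deposited, at 0.12 and -0.25 on the log2 scale.

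Of the 9 members, Mmp13 and Mmp14 rose in the tumours, Mmp19 fell and 6 did not pass (limma, adjusted p under 0.05). Over all genes 33.5% passed, 16.1% higher and 17.4% lower, so the 3 calls among 9 members are close to the background share. The median log2 difference of the members was 0.75, and that of all genes was -0.08. All tumours lay above all livers for 2 members, Mmp13 and Mmp14, as for 14.0% of all genes, and all below for none, against 15.9%. In either direction 29.8% of all genes had groups that did not overlap. Over the 22 probe sets, 3 were higher and 2 lower, and 30.6% of all probe sets of 1 gene passed. In these bulk samples, fewer cells of a type and less RNA per cell cannot be told apart.

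**Figure D1:**
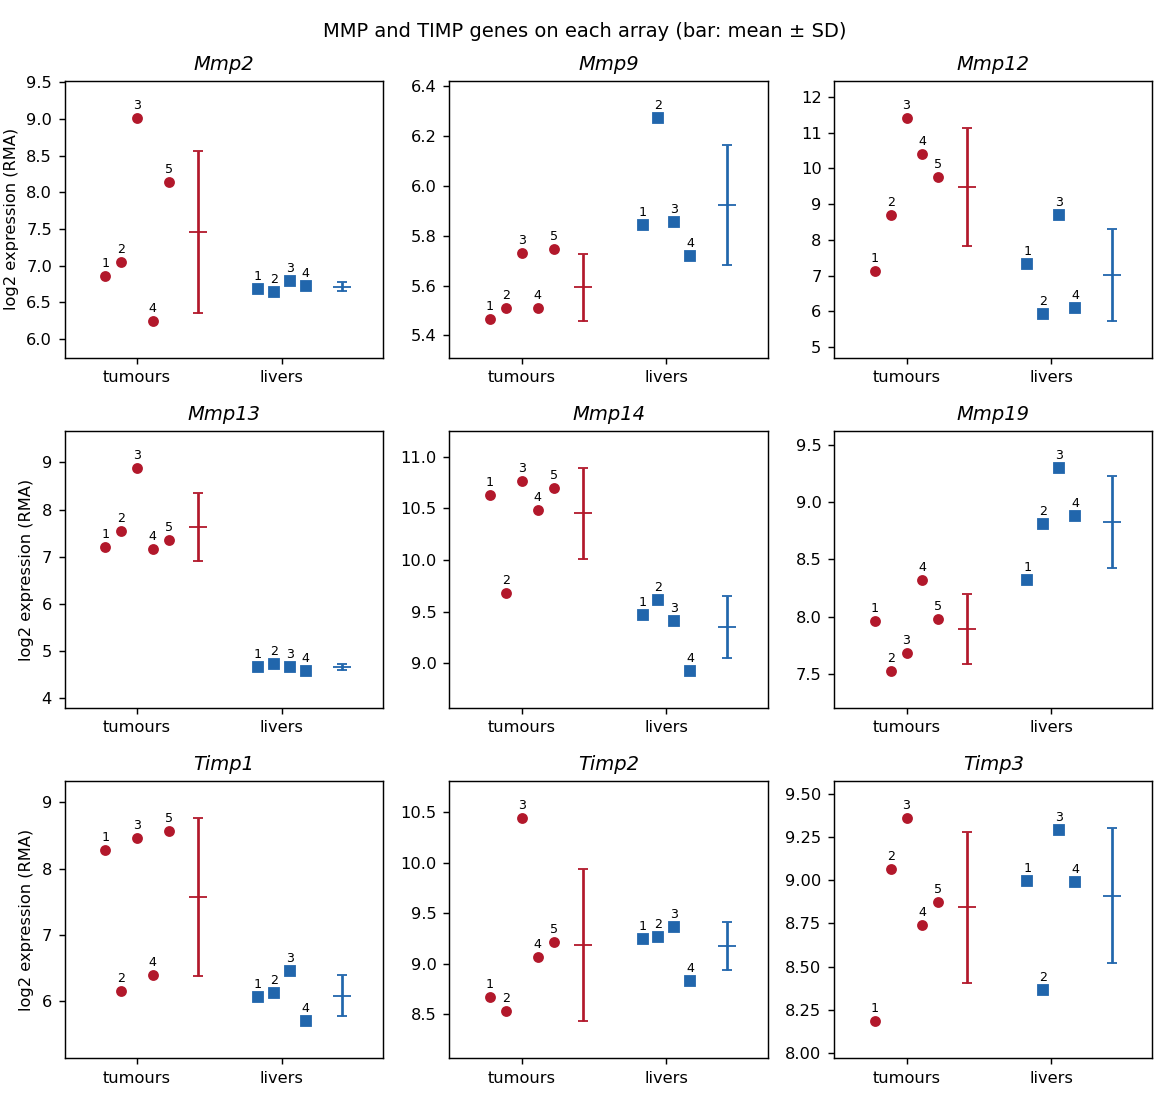
Log2 expression (vertical axes, RMA) of each measured member, 1 point per array with its replicate number, for 5 tumours (red circles) and 4 livers (blue squares), with the mean and SD beside them. Mmp13 in tumours sits between 7.15 and 8.89, above all livers at 4.57 to 4.73, while Timp1 is high in tumours 1, 3 and 5 only.

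Mmp13, the main interstitial collagenase of rodents, had the largest difference of the members. On the log2 scale tumours 1 to 5 read 7.20, 7.54, 8.89, 7.15 and 7.35, and livers 1 to 4 were at 4.66, 4.73, 4.66 and 4.57. All tumours were above all livers, tumour 3 was highest by more than 1 log2 unit, and the livers lay just above the TrpnX control, a range where array values compress differences. The means were 7.63 ± 0.72 (SD, n = 5) and 4.66 ± 0.066 (SD, n = 4). They differed by 2.97 on that scale, or 7.84-fold (SE 0.32, adjusted p = 0.000198 by limma). The difference was 2.66 to 3.17 under all 18 alternatives and passed in each, including without tumour 3 (2.66).

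Mmp12, macrophage metalloelastase, was higher on average in the tumours but overlapped with the livers and did not pass. Tumours 1 to 5 had log2 levels of 7.13, 8.71, 11.42, 10.39 and 9.76, and livers 1 to 4 were at 7.33, 5.92, 8.69 and 6.10. Tumours 2 to 5 were above every liver, narrowly so for tumour 2 over liver 3, and tumour 1 lay among the livers. The log2 difference was 2.47 (SE 0.88, 95% interval 0.48 to 4.46, limma adjusted p = 0.0571). The spread was wide in both groups: the SD was 1.65 among tumours and 1.29 among livers, larger than for 99.3% and 99.5% of all genes. Mmp12 passed without tumour 1 (3.06, adjusted p = 0.0169), without liver 3 (3.03, adjusted p = 0.0395) and without the 3 arrays with low Xist (3.21, adjusted p = 0.0215), and also with housekeeping centring (2.67), 75th-percentile centring (2.30) or with Xist as a covariate (2.69). Its adjusted p ranged from 0.000929 to 0.137 over 18 alternatives.

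Of 17 measured macrophage markers 1 rose and 6 fell, with a median log2 difference of -0.29 (-0.084 with housekeeping centring, where 2 rose and 5 fell, and -0.46 with 75th-percentile centring), and their summed level was 12.50 to 14.71 in the tumours, against 13.60 to 14.59 in the livers. Within the tumours the sum was 12.50, 12.77, 14.71, 14.45 and 14.21 in tumours 1 to 5, the same order as for Mmp12. In livers 1 to 4 it was 14.59, 14.57, 14.59 and 13.60, nearly level in livers 1 to 3, whose Mmp12 was 7.33, 5.92 and 8.69. Liver 2, with a sum above that of tumour 5, had the lowest Mmp12, at 5.92. Timd4, known from resident Kupffer cells, was 4.43 to 5.02 in the tumours, against 7.04 to 7.82 in the livers, and fell (limma adjusted p = 6.4e-06). Clec4f was 6.05 to 8.98 and 10.15 to 11.08 (adjusted p = 0.00179), and the scavenger receptor gene Marco fell by 2.41 (SE 0.43, adjusted p = 0.00284). Cd5l and Adgre1, also known from Kupffer cells, did not pass, at -1.77 (adjusted p = 0.138) and -0.53 (adjusted p = 0.16), and were named after their values had been seen. Cd68, C1qa, C1qb, C1qc, Cx3cr1 and Gpnmb, named likewise, had positive differences of 0.080 to 0.74 and did not pass. Nor did Lyz2 and Itgam, at -0.069 and -0.29. Cd14, a lipopolysaccharide co-receptor of monocytes and macrophages, rose by 2.28 (SE 0.41, limma adjusted p = 0.00307). None of the 17 markers was at or below the TrpnX control in both groups, and the part of macrophages in the Mmp12 values was not tested.

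Mmp14, the membrane-type protease that activates the Mmp2 precursor at the cell surface, rose moderately. Its log2 level in tumours 1 to 5 was 10.63, 9.68, 10.76, 10.48 and 10.69, and in livers 1 to 4 it was 9.46, 9.61, 9.41 and 8.92. The groups did not overlap, but tumour 2 stood only just above liver 2. The means were 10.45 ± 0.44 (SD, n = 5) and 9.35 ± 0.30 (SD, n = 4), a difference of 1.10 (SE 0.23, limma adjusted p = 0.00674) or 2.14-fold. Of its other probe sets 1416572_at gave 1.03 and passed, whereas 1440920_at gave 0.41 and did not (limma adjusted p = 0.0833 over all probe sets). Mmp14 passed without each array in turn, at 0.96 to 1.29.

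Mmp2, gelatinase A, which cuts denatured collagen and basement membrane collagen, was high in 2 tumours only. On the log2 scale tumours 1 to 5 read 6.85, 7.05, 9.02, 6.24 and 8.13, and livers 1 to 4 were at 6.68, 6.64, 6.79 and 6.73. Tumours 3 and 5 were far above the narrow range of the livers, tumours 1 and 2 just above it and tumour 4 below it. The SD was 1.11 among tumours, larger than for 97.6% of all genes, and 0.063 among livers, larger than for 7.54%. The mean difference of 0.75 (SE 0.49, 95% interval -0.36 to 1.86, limma adjusted p = 0.261) did not pass, and it was 0.36 (adjusted p = 0.449) without tumour 3. The second probe set, at 0.47, did not pass either and showed the same 2 tumours highest at 7.87 and 7.61. Stellate cell and fibroblast markers, whose cells are known to make Mmp2, had 3 of 16 members higher and 5 lower (median 0.27), but 7 higher and 5 lower with housekeeping centring (median 0.48) and 2 higher and 5 lower with 75th-percentile centring (median 0.10). Reln fell by 2.66 (SE 0.36, limma adjusted p = 0.000652), Hand2 fell by 1.24 (SE 0.20, adjusted p = 0.00173), Dcn fell by 1.88 and Col1a1 rose by 2.14 (SE 0.51, adjusted p = 0.0116). Their summed level in tumours 1 to 5 was 12.93, 12.93, 14.72, 13.25 and 13.63, against 13.78 to 14.24 in livers, and tumours 3 and 5 were again the highest of the tumours. None of these 16 markers was at or below the TrpnX control in both groups, and their part in the Mmp2 values was not tested.

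Timp2, an inhibitor that also bridges the Mmp2 precursor to Mmp14 on the cell surface, was the third gene of this activation step. Tumours 1 to 5 had log2 levels of 8.67, 8.53, 10.45, 9.06 and 9.22, and livers 1 to 4 were at 9.24, 9.26, 9.36 and 8.82. Tumour 3 stood more than 1 unit above every other array, tumours 1 and 2 below every liver and tumours 4 and 5 within the liver range. The difference was 0.01 (SE 0.35, 95% interval -0.78 to 0.81, limma adjusted p = 0.979), and none of the 6 probe sets passed, with differences of -0.49 to 0.12. Without tumour 3 the difference was -0.30 (adjusted p = 0.239), and over all 23 alternatives the adjusted p was 0.0948 to 0.993.

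**Figure D2:**
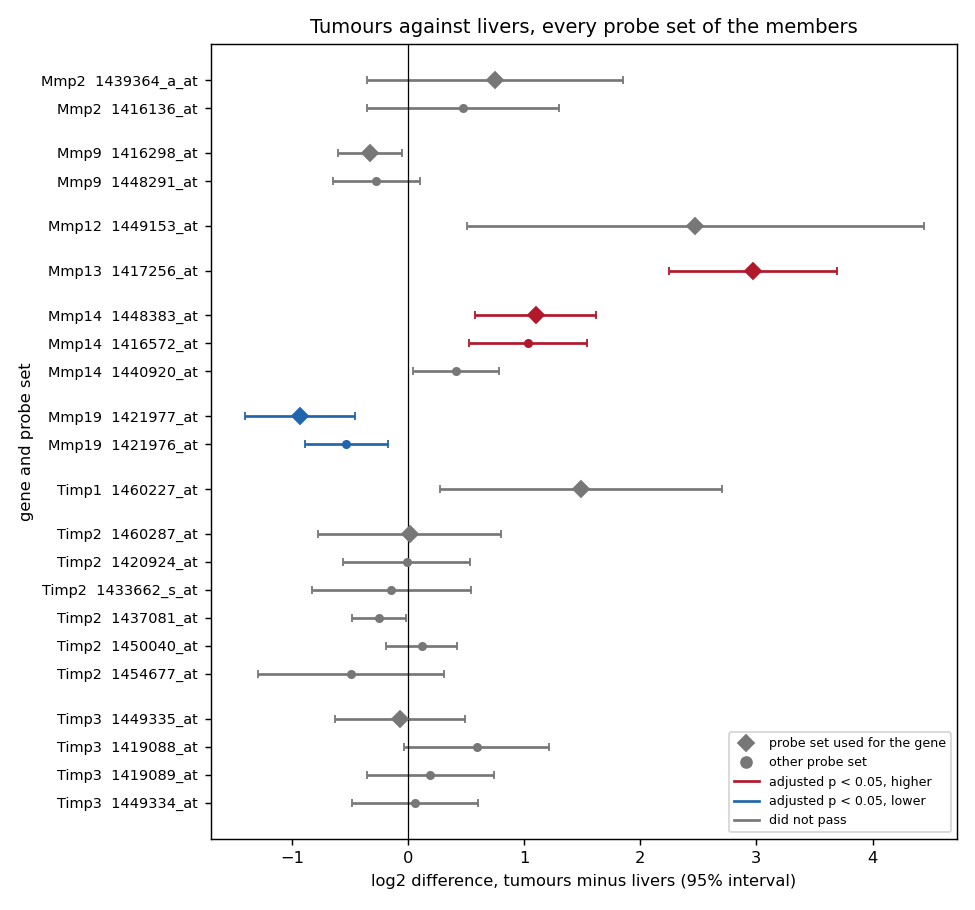
Log2 difference between tumours and livers (horizontal axis) with its 95% interval for each of the 22 probe sets, from a limma fit over all probe sets of 1 gene. Diamonds mark the probe set used for the gene, and colour marks those past an adjusted p of 0.05: Mmp13, 2 of 3 for Mmp14 and both for Mmp19.

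Mmp9, gelatinase B, which neutrophils carry in granules, was lower on average but did not pass. Its log2 level in tumours 1 to 5 was 5.46, 5.51, 5.73, 5.51 and 5.75, and in livers 1 to 4 it was 5.84, 6.27, 5.86 and 5.72. Tumours 1, 2 and 4 were below every liver, and the ranges met at tumours 3 and 5 and liver 4. The difference of -0.33 (SE 0.12, 95% interval -0.61 to -0.05, limma adjusted p = 0.0669) did not pass, and the second probe set gave -0.27. It passed without liver 4 (-0.40, adjusted p = 0.0491) and with 75th-percentile centring (-0.50), but was -0.21 (adjusted p = 0.136) without liver 2 and -0.13 (adjusted p = 0.942) with housekeeping centring. Its adjusted p was 0.00773 to 0.942 over 19 alternatives. Of 9 measured neutrophil markers none rose and 1 fell, the chemokine receptor gene Cxcr2 (-0.25, SE 0.078, limma adjusted p = 0.0371), whose call was lost without tumour 1, 4 or 5 or liver 1, 2 or 3 (-0.26 to -0.21), without the 3 arrays with low Xist (-0.29) and with housekeeping centring (-0.044). With 75th-percentile centring 2 fell. The summed level of the 9 was 9.44 to 11.81 in the tumours, against 9.95 to 12.75 in the livers. Liver 2 was highest among livers both in that sum and in Mmp9, tumour 5 highest among tumours in both and tumour 1 lowest in both. No neutrophil marker was at or below the TrpnX control in both groups, and the part of neutrophils was not tested.

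Mmp19, a secreted protease expressed in many healthy tissues, was the member that fell. On the log2 scale tumours 1 to 5 read 7.96, 7.52, 7.68, 8.32 and 7.98, and livers 1 to 4 were at 8.32, 8.81, 9.30 and 8.88. Tumours 1, 2, 3 and 5 were below every liver, and tumour 4 had the value of liver 1. The means were 7.89 ± 0.31 (SD, n = 5) and 8.83 ± 0.40 (SD, n = 4), a difference of -0.93 (SE 0.21, limma adjusted p = 0.00943). The second probe set also passed, at -0.53. Mmp19 passed without each array in turn (-1.10 to -0.78), but not without the 3 arrays with low Xist together (-0.81, adjusted p = 0.0736) or with arrays centred on housekeeping genes (-0.73, adjusted p = 0.122), and its adjusted p was 0.0033 to 0.122 over 19 alternatives.

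Timp1, the inducible inhibitor of secreted MMPs, divided the tumours. Tumours 1 to 5 had log2 levels of 8.28, 6.15, 8.46, 6.39 and 8.56, and livers 1 to 4 were at 6.06, 6.12, 6.45 and 5.70. Tumours 1, 3 and 5 were above every liver by more than 1 unit, and tumours 2 and 4 lay within the liver range. The difference of 1.49 (SE 0.54, 95% interval 0.26 to 2.71, limma adjusted p = 0.062) did not pass. It passed without tumour 2 (1.84, adjusted p = 0.0151), without tumour 4 (1.78, adjusted p = 0.0299), with arrays centred on housekeeping genes (1.69) and with array weights (1.72), and its adjusted p was 0.00286 to 0.133 over 18 alternatives. The SD among tumours, 1.19, was larger than for 98.2% of all genes.

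Timp3, the TIMP that stays bound to the matrix and also inhibits ADAM proteases, showed no difference that passed. Its log2 level in tumours 1 to 5 was 8.18, 9.06, 9.36, 8.74 and 8.87, and in livers 1 to 4 it was 8.996, 8.37, 9.29 and 8.99. The groups overlapped almost fully, with only tumour 3 above and tumour 1 below all livers. The difference was -0.07 (SE 0.25, 95% interval -0.63 to 0.50, limma adjusted p = 0.852), and the other 3 probe sets gave 0.06 to 0.59 without passing.

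Set against the mean liver, the tumours fell into different patterns of these genes. Tumour 3 had the highest value of the 5 tumours for 6 of the 9 members (Mmp2, Mmp12, Mmp13, Mmp14, Timp2 and Timp3) and the lowest for none, while it was the highest tumour for 19.5% of all genes. Tumour 5 was highest for Mmp9 and Timp1 and lowest for none, and tumour 4 was highest for Mmp19. Tumour 2 was lowest for 4 members (Mmp14, Mmp19, Timp1 and Timp2), tumour 1 for 3 (Mmp9, Mmp12 and Timp3) and tumour 4 for 2 (Mmp2 and Mmp13), against 24.5%, 16.2% and 21.7% of all genes. Across the tumours the lift over the mean liver ran from 2.50 to 4.23 for Mmp13 and from 0.12 to 4.41 for Mmp12. Of the 9 members 7 had a larger SD among tumours than among livers, as had 58.0% of all genes, the exceptions being Mmp9 and Mmp19. Among the tumours, tumour 3 also had the highest summed level of the housekeeping genes and of the stellate cell and fibroblast, macrophage and lymphocyte markers. Tumour 3 was not the highest for the endothelial, neutrophil, bile duct or hepatocyte markers. The part of those cells in its MMP and TIMP values was not tested.

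**Figure D3:**
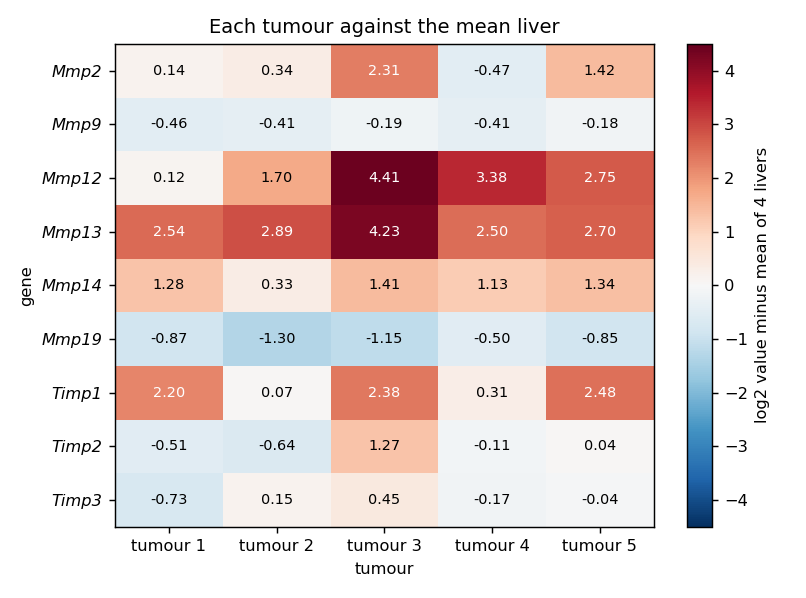
Log2 value of each tumour (columns) minus the mean of the 4 livers for each member (rows), red above and blue below the mean liver. Mmp13 is raised in every tumour, by 2.50 to 4.23, and Mmp19 is below the mean liver in every tumour, by values from -1.30 to -0.50.

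Mmp13 and Mmp12 lie side by side at 1 end of a row of 10 protein-coding MMP genes on chromosome 9 in RefSeq (GRCm38.p6), and 9 of these were measured. The order is Mmp13, Mmp12, Mmp1b, Mmp3, Mmp1a, Mmp10, Mmp8, Mmp27, Mmp20 and Mmp7. Of the 7 measured genes of the row that are not members, Mmp1a and Mmp1b were below the TrpnX maximum of 4.36 in both groups. Mmp20 had a mean below it in the tumours only. Array values compress differences in that range. All 7 had log2 differences of -0.46 to -0.01, with group means of 3.84 to 6.99. Only Mmp7, matrilysin, passed among them, and it was lower: 6.30 to 6.69 in the tumours, against 6.72 to 7.18 in the livers (-0.46, SE 0.12, limma adjusted p = 0.0146). That call was lost with arrays centred on housekeeping genes (-0.26) and without the 3 arrays with low Xist (-0.49). By the test Mmp13 alone of the 9 measured genes of the row was higher in the tumours, as Mmp12 did not pass (limma adjusted p = 0.0571).

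**Figure D4:**
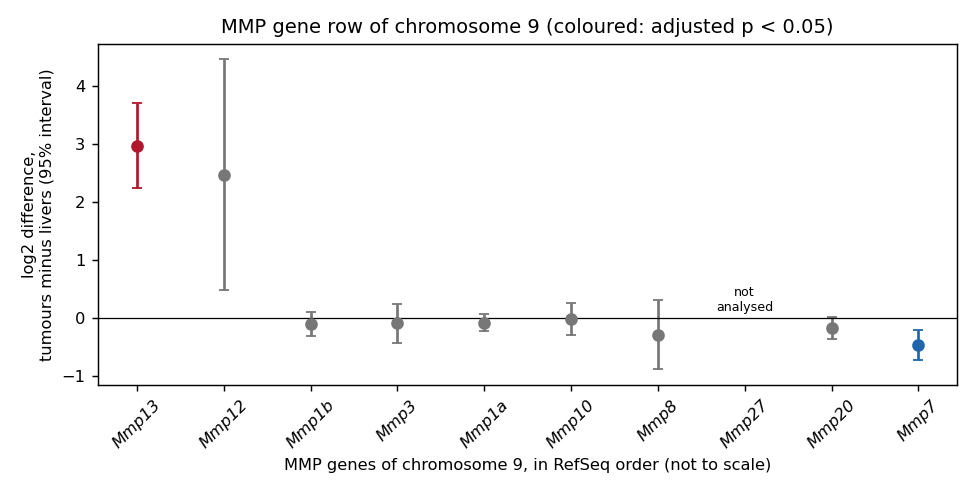
Log2 difference between tumours and livers (vertical axis) with its 95% interval for the MMP genes of chromosome 9 in their RefSeq order, colour marking an adjusted p under 0.05. Mmp13 at 2.97, which passed, and Mmp12 at 2.47, which did not, lie above the other 7 measured genes, at -0.46 to -0.01.

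The genes most like a member were those with the smallest root mean square distance over the 9 arrays, each gene centred on its own mean. For Mmp13 they were Col4a1, a basement membrane collagen chain (0.301), Parpbp (0.343) and Gtse1 (0.380). Col4a1 shared the high value of tumour 3, at 12.22 against 10.50 to 11.09 in the other tumours and 7.72 to 8.91 in livers. For Mmp12 the nearest were Ms4a7 (0.693), the chemokine gene Cxcl10 (0.966) and Cd14 (0.974). Ms4a7, known from macrophages, was 7.90, 7.64, 10.54, 9.06 and 8.86 in tumours 1 to 5 and 6.24 to 7.70 in livers. For Timp1 they were Plch1 (0.239), Phlda2 (0.348) and Zmat3 (0.366). Plch1 had the same split as Timp1, at 6.87, 7.08 and 6.80 in tumours 1, 3 and 5, 4.05 and 4.74 in tumours 2 and 4 and 4.20 to 4.47 in livers.

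Of 13 measured genes among the other MMPs and Timp4, none rose and 2 fell, Mmp7 and Mmp16, with a median log2 difference of -0.09. With housekeeping centring 0 rose and 0 fell (limma, median 0.11), and with 75th-percentile centring 0 rose and 7 fell (median -0.27), so the count of this list depended on the scaling. Mmp16, another membrane-type MMP, was 4.42 to 4.62 in the tumours, against 4.92 to 4.98 in the livers. It fell by 0.41 (SE 0.068, limma adjusted p = 0.00196), and that call was lost with housekeeping centring (-0.21). Its values lay just above the TrpnX maximum of 4.36, a range where array values compress differences. At or below the TrpnX control in both groups were 2 of the 13. Timp4 was 9.04 in tumour 5 and 5.24 to 6.06 in the other 8 arrays, and it was singled out after its values had been seen.

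Among 11 other inhibitors and activating proteases, 1 rose and 4 fell, with a median of -0.11. With housekeeping centring 0 rose and 2 fell (median 0.094), and with 75th-percentile centring 0 rose and 7 fell (median -0.28). Reck, a membrane-anchored inhibitor of Mmp2, Mmp9 and Mmp14, was 5.59 to 6.43 in the tumours, against 6.94 to 7.68 in the livers, and fell by 1.45 (SE 0.21, limma adjusted p = 0.00107), and it passed under every alternative run. Pcsk6, a proprotein convertase, fell by 1.63 (SE 0.24, adjusted p = 0.000991). Tfpi2, a serine protease inhibitor of the matrix, fell by 1.03 (SE 0.27, adjusted p = 0.0183), a call lost without liver 3 (-0.85) and with housekeeping centring (-0.83). Furin, which cleaves the precursor of Mmp14, rose by 0.55 (SE 0.17, adjusted p = 0.0331), but that call was lost without tumour 1, 2, 4 or 5 or liver 1, 2 or 3 (0.47 to 0.59), without the 3 arrays with low Xist (0.57) and under either centring.

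In the plasminogen system, which can activate MMP precursors, 3 of 7 measured genes rose and 2 fell, with a median of 0.56. With housekeeping centring 3 rose and 0 fell (median 0.77), and with 75th-percentile centring 2 rose and 2 fell (median 0.39). The plasminogen receptor gene Plgrkt rose by 0.99 (SE 0.24, limma adjusted p = 0.0129). Serpinf2, the plasmin inhibitor, rose by 0.56 (SE 0.14, adjusted p = 0.0163) but did not pass under either centring. Plaur, the urokinase receptor, rose by 0.94 (SE 0.28, adjusted p = 0.0318), lost without tumour 1 or 5 or liver 2, 3 or 4 (0.87 to 0.94) and without the 3 arrays with low Xist (1.005). Plau, urokinase itself, fell by 0.39 (SE 0.10, adjusted p = 0.0192), lost with housekeeping centring (-0.19) and without the 3 arrays with low Xist (-0.32).

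Of 16 measured ADAM and ADAMTS proteases 2 rose and 2 fell, with a median of 0.35, and 3 rose and 1 fell with housekeeping centring (median 0.55). With 75th-percentile centring the counts were 2 and 2 (median 0.17). Adamdec1, an ADAM-like protease of macrophages and dendritic cells, was 4.81 to 5.18 in the tumours, against 8.85 to 9.19 in the livers, and fell by 3.96 (SE 0.11, limma adjusted p = 3.3e-08). The aggrecanase gene Adamts5 rose by 1.08 (SE 0.30, adjusted p = 0.0215), lost without liver 1 (1.06) or liver 4 (0.91). Adamts7 rose by 1.36 (SE 0.38, adjusted p = 0.024), lost without liver 3 (1.13) and without the 3 arrays with low Xist (1.48). Of 13 cathepsin proteases 2 rose and 4 fell, with a median of -0.23. With housekeeping centring 1 rose and 1 fell (median -0.026), and with 75th-percentile centring 1 rose and 5 fell (median -0.40). Ctsa rose by 0.80 (SE 0.17, adjusted p = 0.00715). Ctsf fell by 0.86 (SE 0.18, adjusted p = 0.00557) and Ctsl by 0.54 (SE 0.13, adjusted p = 0.0109), neither past with housekeeping centring. Ctse fell by 2.02 (SE 0.44, adjusted p = 0.00788), but the mean of its probe sets gave -0.22 and did not pass.

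Of 16 measured matrix substrates 6 rose and 1 fell, with a median of 0.72, against 8 and 1 with housekeeping centring and 6 and 1 with 75th-percentile centring. The basement membrane collagen gene Col4a1 rose by 2.75 (SE 0.35, limma adjusted p = 0.000527), its partner Col4a2 by 1.72 (SE 0.31, adjusted p = 0.00285) and Nid1, a linker of basement membranes, by 2.42 (SE 0.29, adjusted p = 0.000315). Dcn, the collagen-binding proteoglycan decorin of fibroblasts, fell by 1.88 (SE 0.32, adjusted p = 0.00223). Of 12 AP-1 and ETS factors 3 rose and 1 fell, with a median of -0.0033. With housekeeping centring 4 rose and 0 fell (median 0.20), and with 75th-percentile centring 3 rose and 3 fell (median -0.18). Jun was 9.28 to 11.76 in the tumours, against 7.44 to 9.005 in the livers, a rise of 2.595 (SE 0.51, limma adjusted p = 0.00488). The highest tumour was tumour 5 for Jun and tumour 3 for Mmp13. Ets2 rose by 2.59 (SE 0.25, adjusted p = 8e-05) and Jund by 1.54 (SE 0.24, adjusted p = 0.00151). Ets1 fell by 0.58 (SE 0.17, adjusted p = 0.0271), lost without tumour 1 or liver 1, 2 or 3 (-0.59 to -0.48) and with housekeeping centring (-0.38). Fos differed by 0.66 (SE 0.33, adjusted p = 0.142) and did not pass, with tumour 3 the highest at 9.28. Junb, at 0.91 (SE 0.39, limma adjusted p = 0.0991), did not pass either, with tumour 3 the highest at 9.82. Fosb was lowest in tumour 3, at 4.31. Fosl1 was highest in tumour 4, at 6.17, and Fosl2 in tumours 1 and 2, at 7.77, and none of them passed. Fos, Junb, Fosb, Fosl1 and Fosl2 were named after their values had been seen. The part of these factors in the MMP values was not tested.

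Of 9 measured cytokines known to induce MMPs or TIMPs 1 rose and 3 fell, with a median of -0.20. With housekeeping centring 1 rose and 1 fell (median 0.0020), and with 75th-percentile centring 1 rose and 6 fell (median -0.37). Tgfb1, an inducer of Timp1 and of collagen genes, was 8.09 to 9.27 in the tumours, against 7.14 to 7.32 in the livers, a rise of 1.41 (SE 0.23, limma adjusted p = 0.00178). Its highest values were in tumours 3, 5 and 1, which are also the 3 tumours with high Timp1. In tumours 2 and 4, where Timp1 lay within the liver range, Tgfb1 was 8.09 and 8.21, also above every liver. Sox9, a bile duct marker, was likewise highest in tumours 1, 3 and 5. The part of Tgfb1 in the Timp1 values was not tested. Il1b fell by 1.06 (SE 0.22, adjusted p = 0.0054) and Il1a by 0.90 (SE 0.13, adjusted p = 0.00112), Il1a not past with housekeeping centring (-0.70). Csf1 fell by 0.28 (SE 0.076, adjusted p = 0.0199), lost without liver 1 (-0.27), without the 3 arrays with low Xist (-0.21), with the mean of its probe sets (-0.14) and with housekeeping centring (-0.080).

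**Figure D5:**
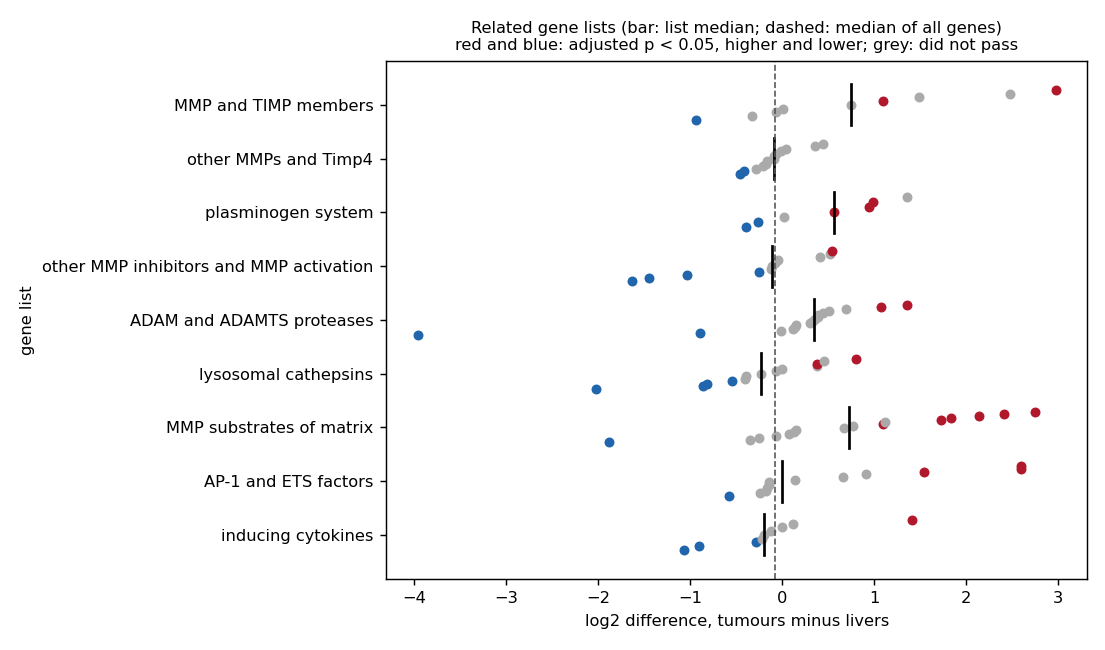
Log2 difference between tumours and livers (horizontal axis) of every measured gene in the members and 8 related lists, red and blue past an adjusted p of 0.05 and grey not. The black bars are list medians, 0.75 for the members and 0.72 for the matrix substrates, and the dashed line is the median of all genes at -0.08.

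The other cell types that the samples could hold were read from their markers. Of 10 endothelial markers 1 rose and 4 fell, and their summed level was 10.85 to 11.75 in the tumours, against 12.63 to 12.94 in the livers, so that the groups did not overlap. A sum of linear values is weighted to its highest genes, here Clec4g at 11.58 to 11.95 in the livers. The sinusoidal markers Clec4g and Stab2 fell by 4.08 (SE 0.62, limma adjusted p = 0.00128) and 1.60 (SE 0.24, adjusted p = 0.00128), and Kdr, a VEGF receptor, by 1.15 (SE 0.12, adjusted p = 0.000157). Emcn, an endothelial sialomucin, rose by 0.83 (SE 0.23, adjusted p = 0.0231), a call lost without liver 1 (0.77) or liver 4 (0.83) and without the 3 arrays with low Xist (0.65). Lyve1, another sinusoidal marker, did not pass (-0.37, SE 0.84, adjusted p = 0.75) and was named after its values had been seen. Nor did Pecam1 (0.40), Tie1 (0.17), Cdh5 (-0.10) and Eng (-0.29), which were named likewise. Of 5 measured bile duct markers Sox9 rose by 1.32 (SE 0.37, limma adjusted p = 0.0235) and Krt7 fell by 0.29 (SE 0.094, adjusted p = 0.0432). The Sox9 call was lost without tumour 1, 3 or 5 or liver 1 or 3 (1.15 to 1.28) and with the mean of its probe sets (0.75). That of Krt7 was lost when any 1 array other than liver 1 was left out (-0.31 to -0.21), without the 3 arrays with low Xist (-0.309) and with housekeeping centring (-0.083). The bile duct markers had sums of 8.63 to 9.14 and 8.49 to 8.79, and of 8 lymphocyte markers none passed, with sums of 9.73 to 10.90 and 9.86 to 10.79. Col1a1, a fibrillar collagen and Mmp13 substrate, was 10.33 in tumour 3, 7.63 to 8.21 in the other tumours and 5.71 to 6.69 in livers. The part of these cells in the MMP and TIMP values was not tested.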

How the data were processed

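The authors deposited log2 expression values per probe set for 45101 probe sets on 9 arrays, which were computed by RMA according to the submitters' processing notes (version and settings unstated). Trizol RNA went through 2 rounds of amplification, per the labels' protocols, and such amplification can shorten transcripts at the 5' end. RMA normalisation gives all arrays nearly 1 distribution, and precision is limited by how many arrays there are. No label names a scan batch. The platform annotation gave 34945 probe sets 1 gene, 932 several and 9160 none, with 64 controls left out. Of the 1-gene probe sets 34741 were found by gene identifier in RefSeq, and 0 symbols changed. No sample column was left unused. Groups were taken from the sample titles and compared by two-sided tests with limma 3.58.1 (lmFit, then eBayes; R 4.3.3), and no covariate was fitted. Other values came from Python 3.11.15. The limma step was tested on simulated data. No array was taken for a duplicate, as even the most alike pair had a root mean square difference of 0.311.

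The members, gene lists, alternatives and naming rule were chosen with earlier results of these data known, so counts in lists are descriptions. Genes named from each list were the 3 of lowest adjusted p among calls in its commoner direction, or fewer, and 1 in the other. Timp4, Fos, Fosb, Fosl1, Fosl2, Junb, Lyve1, Pecam1, Tie1, Cdh5 and Eng were singled out after their values had been seen. So were the macrophage markers Cd5l, Adgre1, Cd68, C1qa, C1qb, C1qc, Cx3cr1, Gpnmb, Lyz2 and Itgam. Leaving out the 3 arrays with low Xist together was added after seeing the data.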

Additional observations from a re-analysis of the deposited data

Results flagged for a closer look

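In 184 groups of 4 or 5 arrays, 12 held an array whose gap to its nearest neighbour was a large part of the group's range (Dixon's 95% limit), where chance gives about 1 in 20. Tumour 3 stood apart for Mmp13 at 8.89 (others 7.15 to 7.54), for Col1a1 at 10.33 (others 7.63 to 8.21) and for Col4a2 at 11.19 (others 9.52 to 9.97). Tumour 2 was low for Mmp14 by 2 probe sets, at 9.68 (others 10.48 to 10.76) and at 6.86 (others 7.51 to 7.59). Tumour 5 stood apart for Timp4 at 9.04 (others 5.24 to 5.73) and for Mmp8, the neutrophil collagenase, at 6.01 (others 4.86 to 5.19). Tumour 1 was apart for Mmp24 at 7.32, where the others were all at 7.31. Among livers, liver 2 was low for 1 of the 4 Timp3 probe sets at 5.59 (others 6.67 to 6.82), and liver 4 was low for the macrophage receptor gene Marco at 6.59 (others 8.61 to 8.92). Liver 3 was apart for Hand2 at 7.79 (others 7.54 to 7.56) and liver 1 for Reln at 11.08 (others 10.96 to 10.96).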

How the results depend on the processing

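Mmp13 passed with the same direction under every alternative run, and Mmp14 under all but the replicate block and 1 of its other probe sets. With arrays centred on housekeeping genes 4 members were higher, 0 were lower and 3110 genes passed, against 2, 1 and 6091. By that setting Timp3 turned to 0.14. With centring on the 75th percentile 2 members were lower and 10201 genes passed, and Timp2 turned to -0.16. Without the 3 arrays with low Xist, 0 members were lower and Timp3 turned to 0.11. Leaving out each array in turn gave 2 to 3 members higher, 1 to 2 lower and 4632 to 6361 genes past the threshold. In those runs Timp2 turned to -0.30 and -0.10 without tumour 3 and liver 4, and Timp3 to 0.098 and 0.060 without tumour 1 and liver 3. With the mean of all probe sets Timp2 was -0.13 and Timp3 was 0.19, and with array weights Timp2 was -0.015. Other probe sets gave Timp2 values of -0.013, -0.14, -0.25 and -0.49 and Timp3 values of 0.59, 0.19 and 0.057. None of these Timp2 or Timp3 values passed, and the cause was not tested. Signal near background limits the livers' Mmp13.

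The titles number both groups, but the numbers name no shared animal or day, and deviations of same-numbered arrays correlated at -0.13, -0.07, 0.18 and -0.12, so they were not taken to pair the samples. With a replicate block 1 member was higher, 0 were lower and 3552 genes passed. Tumour 5, in a block of its own, adds nothing to that fit. Mmp14 was then 1.04 (limma adjusted p = 0.0529) and Mmp19 -0.96 (0.0508).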
